A study of Rattus norvegicus with 6 samples.

Results

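Amphiregulin (Areg), the remaining EGF receptor ligands and their receptors were described in lung tissue of 3 knockout (KO) and 3 wild-type (WT) rats. The set held 10 genes of the 40995 in the deposited tables, taken by gene name: the 7 ligands Areg, Ereg, Hbegf, Egf, Tgfa, Btc and Nrg1 and the 3 receptors Egfr, Erbb2 and Erbb3. KO rats belonged to the crTMPRSS2 line, in which CRISPR/Cas9 editing was directed at Tmprss2, a membrane serine protease of airway and alveolar epithelium; WT rats were wild type, and all 6 animals had a Sprague-Dawley background and no treatment. The labels used here give no age, sex or number of founders, and they name the same batch for all 6 samples. The set was chosen by measured values, with the KO against WT difference in read counts of Areg in view. The values of all 10 genes in that comparison are therefore given as a description, without exact p-values. Where members are counted against a p threshold, nothing is read from the counts.

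ErbB receptors are tyrosine kinases that pair when a ligand of the EGF family binds. EGF, TGF-α and amphiregulin bind EGFR; HB-EGF, betacellulin and epiregulin bind EGFR and ERBB4. Neuregulin 1 binds ERBB3 and ERBB4, and ERBB2 has no known ligand of its own and acts as a partner. The ligands are made as membrane proteins and are released by proteases such as ADAM17. In the lung, amphiregulin is known from epithelium under injury and from group 2 innate lymphoid cells, regulatory T cells and mast cells, and it is linked to epithelial repair.

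Areg was the member whose level differed most between the genotypes. Its level in KO lungs was 25.8% of that in WT lungs, while each of the other 8 members with enough reads for the fit lay nearer to no difference. With all 6 libraries, no other member had KO and WT values that did not overlap.

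The promoter of Areg is shown because Areg is the member on which the difference rests. The window runs from 250 bases before to 50 bases after the start that RefSeq annotates, at chr14:17265592-17265891 of GRCr8 on the minus strand; the expression values below were counted on the earlier build mRatBN7.2. Capitals mark TGACGTCA, the letters of a cAMP response element, a binding sequence of CREB, which begin 91 bases before the annotated start. They also mark TATAAA, the letters of a TATA box, which begin 61 bases before that start. Both were matched by letters alone, and their use was not tested.
Areg promoter: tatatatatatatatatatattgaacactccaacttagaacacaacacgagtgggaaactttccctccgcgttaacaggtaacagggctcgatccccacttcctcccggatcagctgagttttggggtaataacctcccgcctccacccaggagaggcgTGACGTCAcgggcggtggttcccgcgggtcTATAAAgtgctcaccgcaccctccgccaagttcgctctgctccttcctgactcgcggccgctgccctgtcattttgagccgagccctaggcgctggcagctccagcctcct
RefSeq promoter windows of GRCr8 were matched for 7 of the 10 members: Areg, Hbegf, Egf, Tgfa, Btc, Egfr and Erbb2. The letters TGACGTCA, which read the same on both strands, were found in the window of Areg and in 0 of the other 6, and in 1.83% of all 33469 windows. TATAAA on either strand was likewise found in the window of Areg and in 0 of the other 6, and in 14.2% of all windows. The shorter TGACG, which lies within TGACGTCA on each strand, was in the windows of Areg and Hbegf (21.2% of all windows). GGGCGG, the core of an SP1 site, was in those of Areg, Tgfa, Btc, Egfr and Erbb2 (33.1%), GGAATG, the core of a TEAD site, in that of Erbb2 (14.2%), and the AP-1 letters TGANTCA in none of the 7 (7.33%).

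Read counts over all genes totalled 29933359 to 30514778 in the KO libraries and 33033732 to 36895162 in the WT libraries. WT replicate 1 stood apart: its score on principal component 1 of log2 CPM was -108.6, where the other 5 scored 9.09 to 30.6. It carried RNA of squamous epithelium and striated muscle, so values without it are given as well. Its summed squamous marker level (15 genes, CPM, counts per 1e6 counts) was 3821, against 251 to 278 in KO and 239 and 270 in WT replicates 2 and 3. Its summed skeletal muscle marker level (10 genes) was 10344 CPM, against 24.5 to 52.9 CPM in KO and 24.4 and 27.3 CPM in WT replicates 2 and 3. The lung label held in all 6 libraries, with the surfactant gene Sftpc at 8325 to 8724 CPM in KO and 9470 to 15408 CPM in WT. Tmprss2 mRNA was present in both groups, at 46.1, 56.4 and 47.0 CPM in KO and 50.5, 62.0 and 65.7 CPM in WT, in overlapping ranges. The log2 ratio of KO over WT was -0.25, with an SE of 0.14, and the adjusted p of edgeR's quasi-likelihood test was 0.508; without WT replicate 1 these were -0.36 and 0.0589. Gene totals do not show a small deletion, so this level does not check the genotype labels.

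The plot of CPM by library shows all 10 members.

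**Figure D1:**
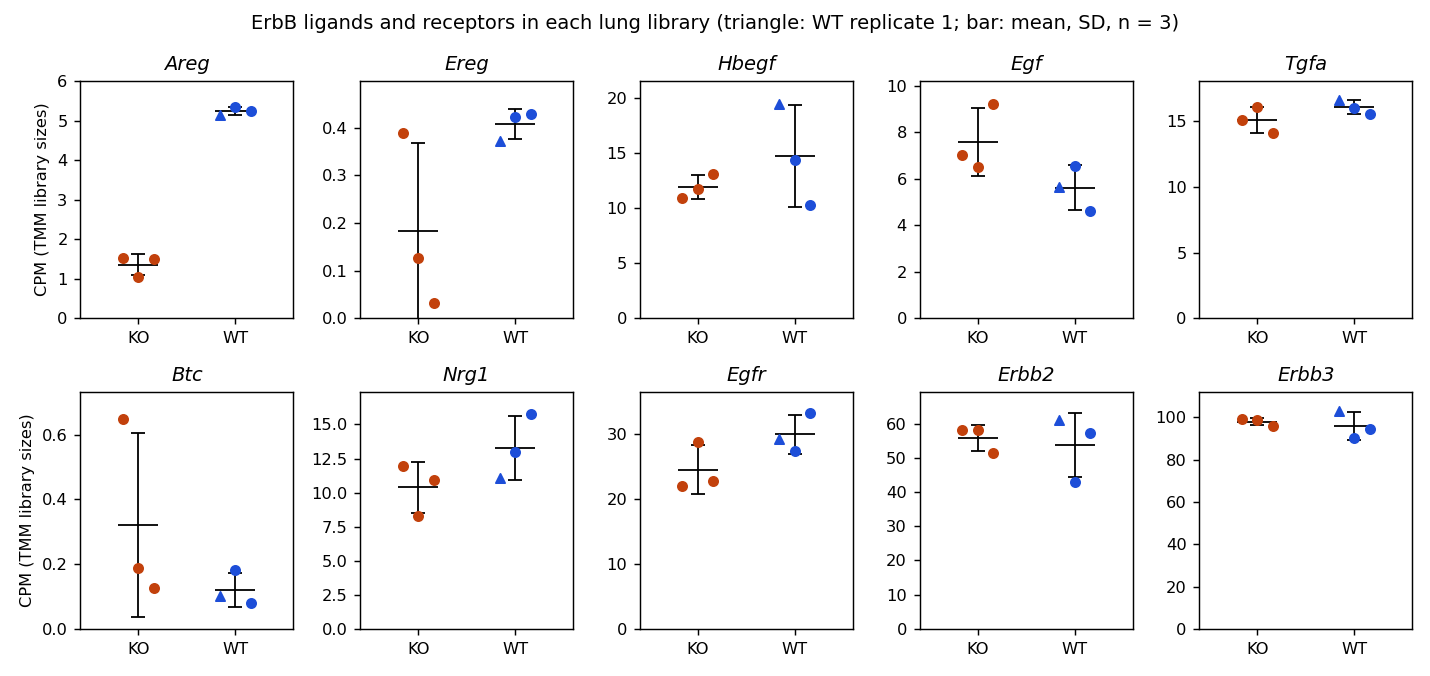
Level of each of the 10 members in CPM (vertical axis, from 0) in 3 KO and 3 WT lung libraries; points are libraries, the triangle is WT replicate 1, and the bar with whiskers is the mean and SD of each group (n = 3; whiskers of Ereg are cut at 0). Areg is the panel in which the groups do not overlap, with KO between 1.04 and 1.52 CPM and WT between 5.15 and 5.34 CPM.

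Areg (gene ID 29183; chromosome 14, 16972185 to 16981443 of mRatBN7.2, minus strand) had 47, 33 and 47 reads in KO replicates 1 to 3, against 152, 177 and 196 reads in WT replicates 1 to 3. Scaled to library size, these were 1.52, 1.04 and 1.5 CPM in KO and 5.15, 5.34 and 5.25 CPM in WT. The highest KO library lay far below the lowest WT library, and WT replicate 1 did not stand apart from the other WT libraries. Areg averaged 1.35 ± 0.272 CPM in KO and 5.25 ± 0.0962 CPM in WT (SD, n = 3 each), 3.88-fold lower in KO. Its log2 ratio of KO over WT, as fitted, was -1.95 (SE 0.24; 95% interval from -2.52 to -1.39), and it was -1.96 (SE 0.25) without WT replicate 1. With 33 to 47 reads per KO library, counting alone gives an SD of 15.4% of the mean in KO and 7.56% in WT; the SD between libraries was 20.1% of the mean in KO and 1.83% in WT. The spread among the 3 WT libraries was thus smaller than counting error alone gives. In bulk tissue, fewer cells that express a gene and less RNA per cell cannot be told apart.

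In the edgeR fit across all 18464 tested genes, 0 of the 9 tested members passed an adjusted p under 0.05, where 0.0542% of all genes passed (0.0379% as lower in KO); 1 member, Areg, had an unadjusted p under 0.05, beside 11.3% of all genes. Areg was the 1 member that passed in DESeq2, where 2.73% of all genes passed, and in limma-voom with sample quality weights, where 9.08% passed. It was also the 1 member that passed in limma on log2(FPKM + 1), where 0.0596% of all genes passed, and on log2(FPKM + 0.1), where 0.0758% passed. FPKM is the number of fragments per kilobase of gene length and per 1e6 fragments. Without WT replicate 1, 1 of 9 tested members passed, again Areg, where 3.99% of all genes passed. KO and WT libraries did not overlap for 1 of the 10 members, beside 22.8% of all tested genes (11.4% lower and 11.4% higher in KO). Without WT replicate 1 they did not overlap for 4 of 10, beside 34.4% of all tested genes: Areg, Ereg and Nrg1 were lower in KO and Erbb3 was higher. As this comparison chose the set, nothing is read from these counts. The authors' deposited table of the same comparison lists 192 genes, 1.02% of the 18916 that its adjustment covered; Areg is in it and the other 9 members are not. That table gives Areg a log2 fold change of -1.96, with group means of size-factor-scaled counts of 43.4 in KO and 169 in WT.

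Epiregulin and betacellulin, whose genes lie beside Areg on chromosome 14, were close to the limit of detection. Ereg (17027287 to 17041062, minus strand) had 12, 4 and 1 reads in KO, against 11, 14 and 16 reads in WT. KO replicate 1 lay within the WT range, and KO replicates 2 and 3 lay below it. Its log2 ratio was -1.15 (SE 0.75, 95% interval from -2.91 to 0.61), an interval that holds 0 as well as the value of Areg. The ratio was -2.31 without KO replicate 1 and -0.66 without KO replicate 3. Btc (16708447 to 16746961, plus strand) had 20, 6 and 4 reads in KO and 3, 6 and 3 reads in WT, and it was the member left out by the filter on low counts. Its groups overlapped, and its highest value came from KO replicate 1.

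Hbegf and Tgfa were the ligands with the highest FPKM in KO. Hbegf, the heparin-binding EGF-like factor (chromosome 18, 28106284 to 28116167, minus strand), stood at 10.9, 11.8 and 13.1 CPM in KO and at 19.5, 14.4 and 10.3 CPM in WT. Its highest value was that of WT replicate 1, the library with squamous epithelium RNA, and its lowest that of WT replicate 3, so that the KO libraries lay inside the WT range. The log2 ratio was -0.30 (SE 0.24) with all 6 libraries and -0.05 (SE 0.16) without WT replicate 1, and it was -0.51 without WT replicate 3; the part of squamous RNA in the first value was not tested. Tgfa (chromosome 4, 118618043 to 118700897, plus strand) stood at 15.1, 16.1 and 14.1 CPM in KO and at 16.6, 16 and 15.5 CPM in WT. The groups overlapped, and the log2 ratio was -0.09 (SE 0.12, 95% interval from -0.38 to 0.20); without KO replicate 3 it was -0.04, and without KO replicate 2 -0.14.

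Egf, the founding ligand of the family, was the 1 tested ligand among the members with a log2 ratio above 0. Egf (chromosome 2, 218219408 to 218302370, minus strand) stood at 7.03, 6.49 and 9.22 CPM in KO and at 5.65, 6.54 and 4.61 CPM in WT. WT replicate 2 lay above the lowest KO library and below the other 2, and the log2 ratio was 0.44 (SE 0.22, 95% interval from -0.08 to 0.96), with 0.27 without KO replicate 3. Nrg1, the ERBB3 and ERBB4 ligand (chromosome 16, 59250658 to 60303024, plus strand), stood at 11.9, 8.29 and 10.9 CPM in KO and at 11.1, 13.0 and 15.7 CPM in WT. The groups overlapped through WT replicate 1, the lowest WT library, and the log2 ratio was -0.36 (SE 0.20) with all 6 libraries and -0.47 (SE 0.17) without WT replicate 1. It was -0.22 without WT replicate 3 and -0.22 without KO replicate 2. In neither fit did Egf or Nrg1 pass.

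The receptors lay closer together. Egfr (chromosome 14, 91176931 to 91349722, plus strand) stood at 22.1, 28.8 and 22.8 CPM in KO and at 29.2, 27.4 and 33.2 CPM in WT. KO replicate 2 lay within the WT range and the other 2 KO libraries below it; the log2 ratio was -0.29 (SE 0.14, 95% interval from -0.63 to 0.05) and -0.30 (SE 0.13) without WT replicate 1. Erbb2 (chromosome 10, 83411197 to 83435078, plus strand) stood at 58.0, 58.2 and 51.5 CPM in KO and at 60.9, 43.0 and 57.2 CPM in WT, with a log2 ratio of 0.06 (SE 0.15). Erbb3 (chromosome 7, 994549 to 1015876, minus strand) stood at 99.0, 98.8 and 95.9 CPM in KO and at 103, 90.4 and 94.3 CPM in WT, with a log2 ratio of 0.03 (SE 0.09, 95% interval from -0.18 to 0.24). For both, the KO libraries lay inside the WT range, and the sign of the log2 ratio turned without WT replicate 2 (-0.080 for Erbb2 and -0.0115 for Erbb3).

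Among 9 tested members, 6 lay below 0 on the log2 scale and 3 above; their median was -0.29 (-0.06 without WT replicate 1), beside -0.0029 over all 18464 tested genes. With all 6 libraries the 95% interval held 0 for 8 of them and excluded it for 1, Areg. As this comparison chose Areg, nothing is read from that. The plot of log2 ratios shows the intervals of both fits.

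**Figure D2:**
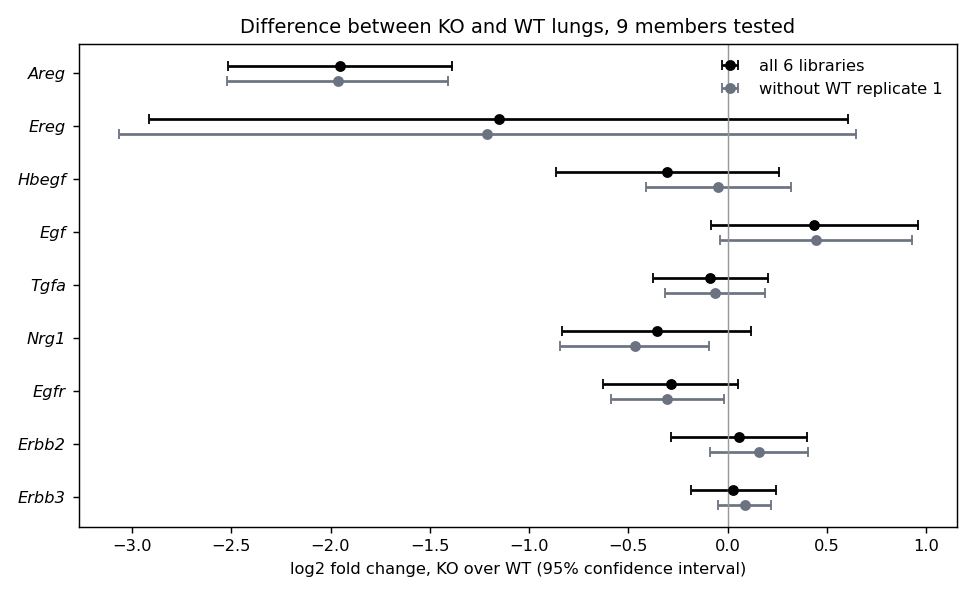
Log2 ratio of KO over WT (horizontal axis) for the 9 tested members, as points with 95% confidence intervals, from all 6 libraries (black) and without WT replicate 1 (grey). Areg lies at -1.95 and -1.96, and the intervals of the other 8 members hold 0 with all 6 libraries; those of Nrg1 and Egfr lie below 0 without WT replicate 1, where neither passed the adjusted threshold.

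Levels between genes were compared on FPKM, which the authors scaled by gene length. In KO lungs the order was Erbb3 (15.5 ± 0.272 FPKM), Erbb2 (9.96 ± 0.666), Hbegf (7.63 ± 0.709), Tgfa (3.35 ± 0.215), Egfr (2.53 ± 0.376), Egf (1.23 ± 0.236), Areg (1.17 ± 0.236), Btc (0.522 ± 0.462), Nrg1 (0.496 ± 0.0905) and Ereg (0.217 ± 0.220; SD, n = 3). In WT lungs it was Erbb3 (15.3 ± 1.14 FPKM), Erbb2 (9.62 ± 1.74), Hbegf (9.49 ± 3.04), Areg (4.55 ± 0.0541), Tgfa (3.58 ± 0.139), Egfr (3.10 ± 0.303), Egf (0.917 ± 0.158), Nrg1 (0.638 ± 0.109), Ereg (0.487 ± 0.0336) and Btc (0.197 ± 0.0856; SD, n = 3). Areg ranked 4 among the 7 ligands in KO and 2 in WT. In WT its 3 values lay above all 3 of Tgfa and below all 3 of Hbegf, while in KO they lay below all 3 of Tgfa and overlapped those of Egf. Other neighbours in the order whose libraries overlapped were Areg and Btc, Btc and Nrg1, and Nrg1 and Ereg in KO, and Erbb2 and Hbegf, and Egf and Nrg1 in WT. The gene length used for Nrg1, 20747 bases, is far longer than the others, and it lowers the FPKM of that gene.

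The 6 EGF receptor ligands summed to 14.3, 13.5 and 14.6 FPKM in KO, against 22.4, 19.3 and 16 FPKM in WT. The groups did not overlap, and WT replicate 1 was the highest library. Without Areg the sums were 13.0, 12.6 and 13.3 FPKM in KO and 17.9, 14.7 and 11.4 FPKM in WT, and the groups overlapped. Areg made up 9.19%, 6.64% and 8.88% of the summed FPKM in KO and 20.1%, 23.9% and 28.4% in WT. Hbegf made up the largest share in every library, 54.1% ± 4.6 in KO and 48.5% ± 7.61 in WT (SD, n = 3 each). The 3 receptors summed to 28.0 ± 1.13 FPKM in KO and 28.0 ± 2.93 FPKM in WT (SD, n = 3 each).

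**Figure D3:**
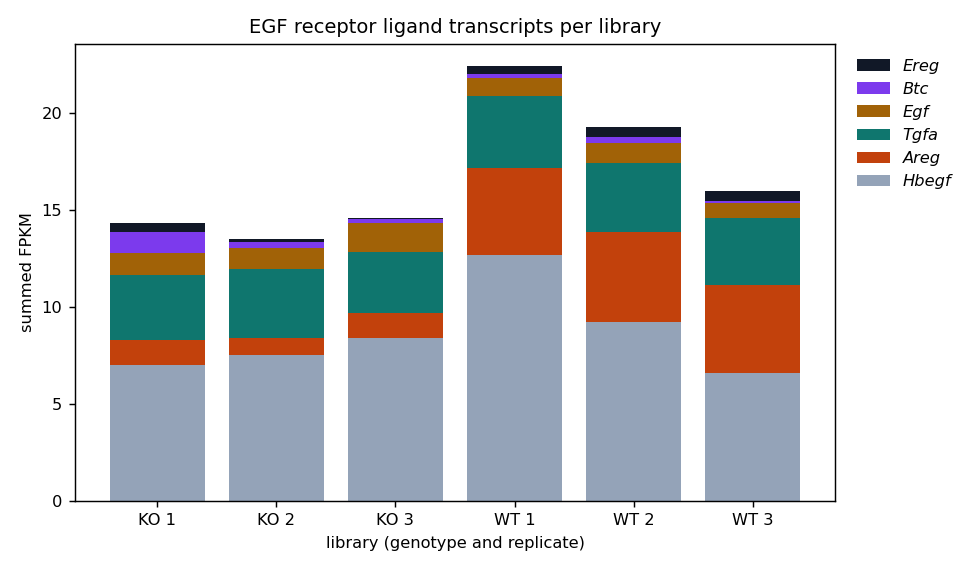
Summed FPKM of the 6 EGF receptor ligands (vertical axis, from 0) in each KO and WT library (horizontal axis), with 1 colour per ligand. The Areg segment is 0.896 to 1.32 FPKM in KO and 4.5 to 4.61 FPKM in WT, and the Hbegf segment is the tallest in each library.

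Areg lies in a cluster with Btc, Ereg and Epgn on chromosome 14, followed by CXC chemokine genes. Among the 16 other tested genes within 1 Mb of Areg, 0 passed with edgeR and 2 had an unadjusted p under 0.05, beside 11.3% of all genes. In DESeq2 and in limma on FPKM 0 passed, and 2 in limma-voom with sample quality weights, where 9.08% of all genes passed. Without WT replicate 1, 0 passed, where 3.99% of all genes passed. Of the 16, 9 lay below 0, beside 50.3% of all genes, and the median log2 ratio was -0.04. The 2 with an unadjusted p under 0.05 were Pf4, platelet factor 4, at -0.97 (SE 0.29), and the pseudogene LOC289517, at 1.71 (SE 0.56). Epgn, the ligand epigen, had 4, 4 and 0 reads in KO and 0, 2 and 0 reads in WT. The genes singled out here were picked after their values were seen. Cxcl1, a neutrophil chemokine, stood at 11, 9.33 and 12.8 CPM in KO and at 9.24, 11.9 and 12.7 CPM in WT, in overlapping ranges. Naaa, an acid amidase gene 1.19 Mb from Areg and outside that window, stood at 167, 174 and 160 CPM in KO and at 284, 268 and 270 CPM in WT, with a log2 ratio of -0.71 (SE 0.09); it passed without WT replicate 1 and not with all 6 libraries.

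**Figure D4:**
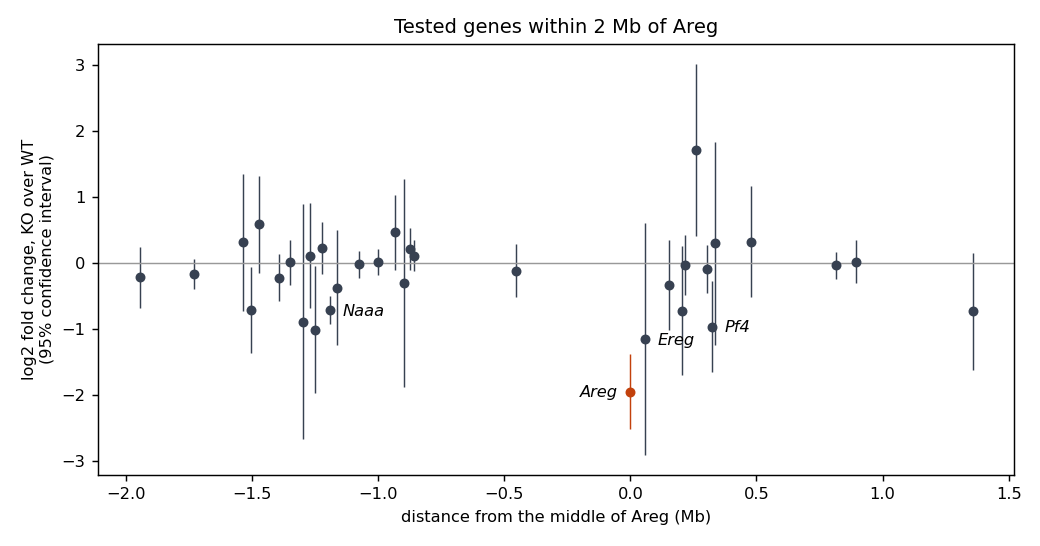
Log2 ratio of KO over WT (vertical axis, with 95% confidence intervals) of tested genes within 2 Mb of Areg, against the distance from the middle of Areg in Mb. Areg (orange) is the lowest point at -1.95, Ereg beside it has a wide interval, and the median of the 16 other genes within 1 Mb is -0.04.

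Genes with levels most like those of Areg were sought among 13831 genes with a mean of at least 1 CPM. Genes whose symbol is only an identifier, such as those starting with LOC or RGD, were left out beforehand. The measure was Pearson's r of log2 CPM, given as a description. Over the 6 libraries the 5 with the highest r were Pigz (r = 0.999), Aoc1 (0.995), C4a (0.991), Rragc (0.989) and Plod2 (0.986). Pigz, a mannosyltransferase of the glycosylphosphatidylinositol anchor pathway, stood at 9.0, 7.75 and 9.06 CPM in KO and at 13.8, 14 and 13.9 CPM in WT. Aoc1, diamine oxidase, stood at 15.6, 13.1 and 16.8 CPM in KO and at 46.8, 42.0 and 45.3 CPM in WT. These genes share with Areg the lower level in all KO libraries and the lowest value in KO replicate 2. Over the 5 libraries without WT replicate 1 the 5 were Eif1, Pigz, Wfs1, Igfbp5 and Postn, so Pigz alone was among the first 5 in both. Among the members, r with Areg over the 6 libraries ran from -0.64 for Egf to 0.73 for Nrg1. The points share the genotype difference and the libraries.

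The pathway around the receptors was described with 7 lists that held 104 matched genes besides the members. With all 6 libraries, 0 of the 102 tested genes passed with edgeR, where 0.0542% of all genes passed. Of the 102, 20 had an unadjusted p under 0.05, beside 11.3% of all genes, and 75 lay below 0, beside 50.3% of all genes. The median log2 ratio of the 102 was -0.13 beside -0.0029 over all genes. DESeq2 passed 4, where 2.73% of all genes passed, and limma on FPKM passed 0. In limma-voom with sample quality weights 17 passed, where 9.08% of all genes passed. Without WT replicate 1, 6 of 102 passed, 5 lower and 1 higher, where 3.99% of all genes passed (2.34% lower and 1.65% higher).

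Of Nrg2, Nrg3, Nrg4, Epgn and Erbb4, 3 were tested and 0 passed in either fit; Nrg3 and Epgn had at most 4 reads in a library. Erbb4, the receptor of the neuregulins and of HB-EGF, stood at 3.76, 5.30 and 4.97 CPM in KO and at 2.00, 4.61 and 4.24 CPM in WT, with WT replicate 1 the lowest library. Its log2 ratio was 0.37 (SE 0.34), and the adjusted p of edgeR was 0.658; without WT replicate 1 the ratio was 0.08 (SE 0.21). Nrg2 stood at 9.84, 10.8 and 12.2 CPM in KO and at 15.2, 11.1 and 11.5 CPM in WT. WT replicate 1 was again apart, here as the highest library, and the log2 ratio was -0.20 (SE 0.18) with it and -0.04 (SE 0.14) without it. Nrg4 had a log2 ratio of 0.46 (SE 0.28), and 0.30 without KO replicate 2. Neither Nrg2 nor Nrg4 passed the threshold.

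Of 11 tested proteases that release the ligands, and their cofactors, 0 passed in either fit, 7 lay below 0 and 4 above, and the median log2 ratio was -0.12. Adam17, the main sheddase of amphiregulin, stood at 177, 185 and 173 CPM in KO and at 194, 206 and 196 CPM in WT. It was the 1 of the 11 whose groups did not overlap, beside 22.8% of all tested genes. Its log2 ratio was small, -0.16 (SE 0.09, adjusted p of edgeR 0.524). Adam8 stood at 137, 107 and 105 CPM in KO and at 53.0, 88.9 and 118 CPM in WT, with a log2 ratio of 0.43 (SE 0.27) and an adjusted p in edgeR of 0.555. Single WT libraries moved that ratio, to 0.17 without WT replicate 1 and to 0.71 without WT replicate 3.

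Of 17 negative regulators of the receptors, 13 lay below 0, with a median of -0.09; 0 passed with all 6 libraries and 1, Socs5, was lower without WT replicate 1. Socs5, a suppressor of cytokine signalling that also targets EGFR, stood at 69.4, 75.7 and 75.0 CPM in KO and at 90.6, 97.7 and 85.5 CPM in WT. Its log2 ratio was -0.31 (SE 0.10) with all 6 libraries and -0.32 without WT replicate 1 (SE 0.08; adjusted p of edgeR 0.0484). Over the 15 alternatives its adjusted p ran from 0.00768 to 0.829. Of 24 adaptors and RAS-ERK and PI3K transducers, 14 lay below 0, with a median of -0.08; 0 passed with all 6 libraries and 1, Shc1, was higher without WT replicate 1. Shc1, the adaptor that links the receptors to GRB2, stood at 138, 141 and 146 CPM in KO and at 121, 105 and 105 CPM in WT. Its log2 ratio was 0.36 (SE 0.10; adjusted p of edgeR 0.277) and 0.43 without WT replicate 1 (SE 0.06; adjusted p of edgeR 0.00405), with a range of 0.00126 to 0.816 over the alternatives.

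Genes that ERK signalling is known to induce summed to a lower level in every KO library than in any WT library, as did some of the other pathway lists. Taken singly, 11.4% of all tested genes were lower in KO without overlap. Of 24 tested ERK response genes, 23 lay below 0, beside 50.3% of all genes. Their median log2 ratio was -0.35 (-0.30 without WT replicate 1). With all 6 libraries 0 passed and 11 had an unadjusted p under 0.05, beside 11.3% of all genes. Without WT replicate 1, 3 passed, all lower, where 2.34% of all genes passed as lower. The summed level of the list was 1625 to 1760 CPM in KO, 2778 CPM in WT replicate 1, and 2133 and 1961 CPM in WT replicates 2 and 3. Sums were also lower in every KO library for negative regulators (1035 to 1101 CPM in KO, 1131 to 1166 CPM in WT). The same held for adaptors and transducers (3227 to 3292 and 3312 to 3508 CPM) and for CREB response genes (381 to 458 and 497 to 651 CPM). Sums of the remaining ligands and receptor, of the sheddases and of YAP and TAZ response genes overlapped. Dusp1, a MAP kinase phosphatase, stood at 95.6, 101 and 104 CPM in KO and at 284, 220 and 157 CPM in WT. Its log2 ratio was -1.14 (SE 0.20; adjusted p of edgeR 0.16) and -0.91 without WT replicate 1 (SE 0.12; adjusted p of edgeR 0.00278), with a range of 6.44e-05 to 0.715 over the alternatives. The other 2 that passed without WT replicate 1 were the stress-induced transcription factor Atf3, at -1.17 (SE 0.24), and Phlda1, at -0.42 (SE 0.08). With all 6 libraries their log2 ratios were -1.46 (SE 0.32) and -0.74 (SE 0.23), and WT replicate 1 had the highest level of both. The list of ERK response genes shares Dusp1 and Fosb with the list of CREB response genes.

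Of 12 tested CREB response genes, 9 lay below 0, with a median of -0.28 (-0.33 without WT replicate 1); 0 passed with all 6 libraries and 2, Dusp1 and Pde4b, were lower without WT replicate 1. Pde4b, a phosphodiesterase that degrades cAMP, stood at 43.5, 43.2 and 39.0 CPM in KO and at 69.1, 55.5 and 54.0 CPM in WT, with a log2 ratio of -0.51 (SE 0.12) with all 6 libraries and -0.39 (SE 0.07) without WT replicate 1. Across all genes other than Areg whose promoter window holds TGACGTCA, 387 were tested. With all 6 libraries 0 of them passed, where 0.0542% of all genes did, and 219 lay below 0, beside 50.3% of all genes. Their median log2 ratio was -0.05 beside -0.0029 over all genes. Without WT replicate 1, 3.86% of the 389 such genes tested passed, against 3.99% of all genes, and 2.83% passed as lower, against 2.34% of all genes. Of 13 YAP and TAZ response genes, a group of which Areg is also known to be part, 10 lay below 0, with a median of -0.12, and 0 passed in either fit. Ccn1, a secreted matrix protein, stood at 28.2, 43.5 and 47.6 CPM in KO and at 103, 48.2 and 59.1 CPM in WT, with a log2 ratio of -0.81 (SE 0.31; adjusted p of edgeR 0.404) that was -0.43 (SE 0.18) without WT replicate 1, the library with its highest level. Axl, a receptor tyrosine kinase, had a log2 ratio of -0.33 (SE 0.11; adjusted p of edgeR 0.374).

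**Figure D5:**
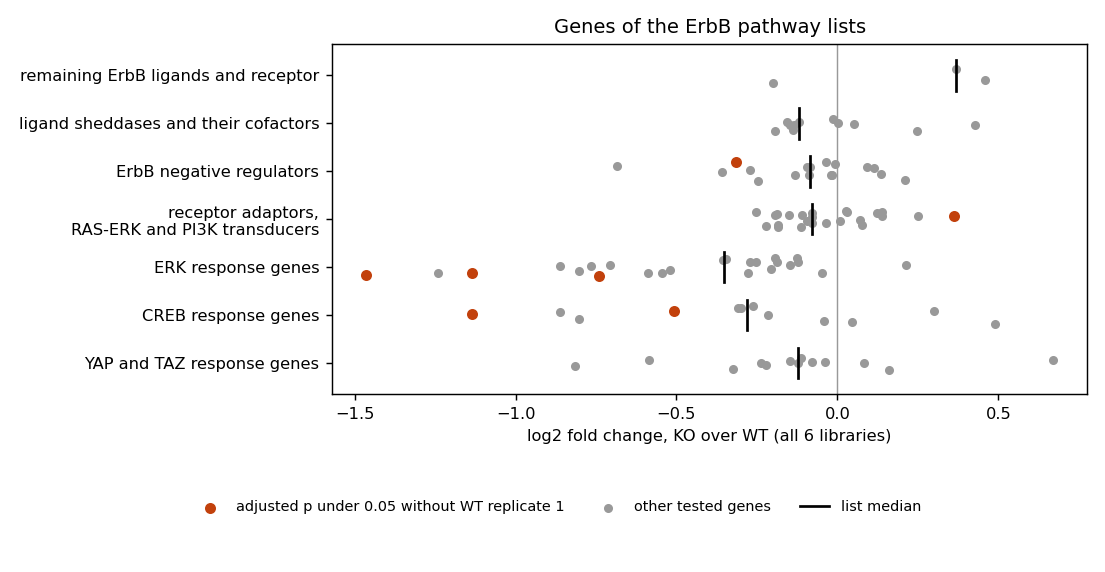
Log2 ratio of KO over WT with all 6 libraries (horizontal axis) for the tested genes of the 7 pathway lists; each point is a gene, black bars are list medians, and orange points passed an adjusted p under 0.05 without WT replicate 1. Medians run from -0.35 for ERK response genes to 0.37 for the remaining ligands and receptor, a list of 3 tested genes.

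Levels of 18 cell marker lists were set beside Areg. Those of group 2 innate lymphoid, regulatory T and mast cells, which are known to carry it, come first. The 8 markers of group 2 innate lymphoid cells summed to 77.4 to 88.6 CPM in KO and 51.2 to 82.4 CPM in WT, the 6 of regulatory T cells to 41.3 to 45.6 CPM in KO and 33.6 to 49.7 CPM in WT, and the 9 of mast cells to 479 to 507 CPM in KO and 353 to 528 CPM in WT. The groups overlapped in each of these 3 sums, and none of their markers was at 0 in all libraries. Without WT replicate 1, 2 of 6 tested innate lymphoid markers, 0 of 6 regulatory T cell markers and 1 of 9 mast cell markers passed, all higher in KO. Of all genes, 1.65% passed as higher in that fit. Among all 18 lists, the sum was lower in every KO library than in any WT library for 4, higher for 2, and overlapping for 12. Taken singly, 22.8% of all tested genes did not overlap either (11.4% lower and 11.4% higher in KO). The 2 lists with higher sums were NK cells and club and secretory cells. The 8 NK cell markers summed to 193 to 201 CPM in KO and 24.6 to 107 CPM in WT. All 8 lay above 0 with a median log2 ratio of 1.35, and 7 passed as higher without WT replicate 1, where 1.65% of all genes did. The 6 club and secretory markers summed to 5883 to 6582 CPM in KO and 3875 to 4970 CPM in WT, and 2 passed as higher without WT replicate 1. The 9 mesothelium markers summed to 284 to 336 CPM in KO and 452 to 475 CPM in WT without overlap. All 8 tested ones lay below 0, and 7 passed as lower without WT replicate 1, where 2.34% of all genes did. The 8 fibroblast markers summed to 4782 to 5004 CPM in KO and 6075 to 9950 CPM in WT, and the 9 markers of alveolar type 2 cells to 27588 to 30024 CPM in KO and 30187 to 48319 CPM in WT, with the highest sums in WT replicate 1. Without that library 3 fibroblast and 2 type 2 markers passed as lower. The 8 macrophage and dendritic cell markers, of which Chi3l3 was at 0, summed to 202 to 253.95 CPM in KO and 253.96 to 270.02 CPM in WT, so that the nearest libraries were almost level; 1 marker passed as lower and 1 as higher without WT replicate 1. Sums of alveolar type 1 markers overlapped, at 6292 to 6832 CPM in KO and 6455 to 6764 CPM in WT. Whether the lower or higher sums of these cell types have a part in the lower Areg was not tested. The log2 ratio of Areg was -1.95 with WT replicate 1, the library with squamous and muscle RNA, and -1.96 without it. A part of squamous or muscle RNA in that ratio was likewise not tested.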

How the data were processed

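Lung mRNA of 3 KO and 3 WT rats was sequenced as paired 150 base reads after poly-T selection, per the labels' protocols; titles give group and replicate. The submitters' processing notes name HISAT2 2.2.1, StringTie 2.2.3, featureCounts 2.0.6, DESeq2 1.42.0, CASAVA and the build mRatBN7.2. Their roles, like strand handling, were not given in the sources used here. Deposited were, per gene, raw read counts, FPKM values by the authors, and the authors' table of their comparison, which holds log2 fold changes, p-values and, for each library, a scaled count (a signal, the count over a size factor).

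The counts were fitted here by edgeR 4.0.16 in R 4.3.3 (TMM; filterByExpr with its defaults, a count of 10 and a total of 15; glmQLFit and glmQLFTest on genotype alone). P-values were adjusted by Benjamini and Hochberg over all 18464 tested genes, with a threshold of 0.05. The SE is the log2 ratio divided by the square root of F. CPM rests on TMM library sizes. The code was tested on simulated data. Alternatives were DESeq2 1.42.0, limma 3.58.1 on log2(FPKM + 1) and log2(FPKM + 0.1), limma-voom with sample quality weights, other scalings and filters, a replicate block, and leaving out each library. P-values set the KO against WT difference against the spread between libraries, which these fits estimate in part from other genes. SDs from read numbers cover counting error only.

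The members and lists were chosen with earlier results of these data known. Named are the members, Tmprss2, up to 4 genes of a list that passed in either fit or else the 2 with the smallest p, and the 5 genes most like Areg by r of log2 CPM (prior count of 2). Erbb4, Nrg3, markers and neighbours of Areg fall outside that rule and were named with their values seen. Of 257 list symbols, 252 matched the deposited symbols, 4 a RefSeq symbol or synonym, and 1 none.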

Additional observations from a re-analysis of the deposited data

How the results depend on the processing

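The log2 ratio of Areg stayed below 0 under all 15 alternatives, between -2.04 and -1.79 with 1 library left out. Areg passed without WT replicate 1 (-1.96), in DESeq2 (-1.96) and in limma-voom with quality weights (-2.02). It also passed in limma on log2(FPKM + 1) (-1.36) and log2(FPKM + 0.1) (-1.89). Each time it was the 1 member that passed, and of all genes, 11 and 14 passed in the 2 limma fits on FPKM. In the other 10 alternatives Areg did not pass: other scalings and filters, the replicate block, and each other library left out. As this comparison chose Areg, nothing is read from these calls. With 1 library left out, Erbb2 ran from -0.080 (without WT replicate 2) to 0.16 and Erbb3 from -0.0115 (without WT replicate 2) to 0.086. Over all genes, 10 passed (3 higher, 7 lower); DESeq2 passed 501 (194 higher, 307 lower) and limma-voom with quality weights 1676 (778 higher, 898 lower). Leaving out 1 library gave 758 without WT replicate 1 (314 higher, 444 lower), 2 without WT replicate 2, 7 without WT replicate 3, 1 without KO replicate 1, and 2 without KO replicate 2 or 3. Of the 102 tested pathway genes 4 passed in DESeq2 (2.73% of all genes) and 17 with quality weights (9.08% of all genes). With 1 library left out 0 to 6 passed, the 6 without WT replicate 1 (3.99% of all genes). Of members 0 to 1 passed with 1 library left out. Members without overlap numbered 2 of 10 with upper quartile scaling, beside 22.8% of all tested genes, and 2 to 4 with 1 library left out, beside 29.3% (without KO replicate 2) to 39.2% (without WT replicate 3) of all tested genes. The cause of the other changes was not tested.

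Replicate numbers did not pair the samples: deviations from the group means correlated at -0.081, 0.027 and -0.085 for numbers 1, 2 and 3, and not every library was closest to its own number. With the replicate block 2 genes, 0 members and 0 pathway genes passed, and Areg stood at -1.97. Depth limits Ereg, Btc and Epgn, with at most 20 reads in a library.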
